A study of Sus scrofa with 17 samples.

Results

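The question addressed here was what a second dose of pUPC-EVs, given during warm perfusion, added to a first dose given in the cold. pUPC-EVs are extracellular vesicles, small membrane particles that carry protein and RNA, released by cultured porcine urine progenitor cells and pooled into a common stock. G3 kidneys received pUPC-EVs during hypothermic machine perfusion (HMP, cold preservation on a pump) and again during normothermic machine perfusion (NMP, oxygenated perfusion at body temperature with the pig's own blood cells), whereas G2 kidneys received them during HMP and PBS during NMP. The comparison took 12 of the 17 sequenced kidneys, 6 of G3 and 6 of G2, chosen by their group label alone. The 5 kidneys of G1, which received PBS in both perfusions, are given beside them where they place a level. All kidneys came from wild type Dutch Landrace pigs of 6 months to 1 year that were labelled female, 1 kidney per slaughterhouse animal, and all had been warm and without blood flow for 32 min, then on HMP for 24 h and on NMP for 5 h, when the biopsy was taken. G2 is therefore a cold-dosed control and not an untreated one, each kidney is a separate animal, and the counts hold 1 biopsy per kidney, from the end of NMP.

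As background, cells that sense viral or misplaced nucleic acid release type I interferons, which bind the receptor pair IFNAR1 and IFNAR2 and act through the kinases JAK1 and TYK2. Transcription factors, among them STAT2 and IRF9, then switch on a broad set of interferon-stimulated genes, whose products sense RNA, block translation, degrade RNA, or attach the ubiquitin-like protein ISG15 to other proteins. Kidney tubule cells, endothelium and resident macrophages can all mount this response, and fibroblasts and pericytes supply the collagens of the renal interstitium. In RNA from a whole biopsy, fewer cells of a type and less RNA per cell cannot be told apart.

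The count tables held 19270046 to 24736473 reads in the single kidneys of G2 and G3. Total count, number of genes detected and the share of counts on mitochondrially encoded genes did not separate G3 from G2 (two-sided exact permutation tests, p = 0.286, 0.716 and 0.398, Benjamini-Hochberg adjusted p = 0.597, 0.716 and 0.597). Defining kidney transcripts were present in all 12 kidneys, with LRP2 of the proximal tubule at 1705 CPM or more (read counts scaled to library size with TMM factors) and UMOD of the thick ascending limb at 1620 CPM or more. One finding went against the labels. EIF1AY, a translation factor gene placed by RefSeq on chromosome Y of Sscrofa11.1 from 9687350 to 9704489, was at 19.2 to 26.9 CPM (403 to 589 counts) in 7 of the 17 kidneys and at 4 counts or fewer in the other 10. These 7 were 5 of the 6 G3 kidneys, all but kidney 3, with G2 kidney 2 and G1 kidney 5. Counting EIF1AY, 7 genes followed the same pattern, with every kidney of the 7 at 1 CPM or more and at least 10 times above all others. EIF1AY detection thus ran nearly alongside group, and results were also computed with it as a covariate, a choice made after seeing the data, and apart in kidneys with and without it. These last 2 fits leave 1 kidney in one group (G2 kidney 2 and G3 kidney 3), which is assumed to vary like the rest. The covariate fit compares the groups within those same 2 sets of kidneys, so it too rests largely on these 2 kidneys.

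Across 25701 genes no difference between G3 and G2 passed an adjusted p of 0.05 with edgeR's quasi-likelihood test, and the smallest adjusted p was 0.706. At an unadjusted p under 0.05 there were 805 genes, or 3.13% of those tested, 415 higher in G3 (1.61%) and 390 lower (1.52%). DESeq2 called 3 genes on the same counts (0.0117%), DDX60 and IFI44L higher and FSCN1 lower in G3, and limma voom with sample weights called 0. In a single draw of simulated counts without any difference both edgeR and DESeq2 also made calls, too few to rank the tools or to judge these genes. For 8677 of the 8962 genes with a mean of at least 10 CPM (96.8%), the 95% interval of the fold change lay inside a 2-fold change in either direction, and for 7444 (83.1%) inside 1.5-fold. Genes of low level were measured less tightly, with a median interval half-width of 0.77 on the log2 scale over all genes against 0.32 above 10 CPM.

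**Figure D1:**
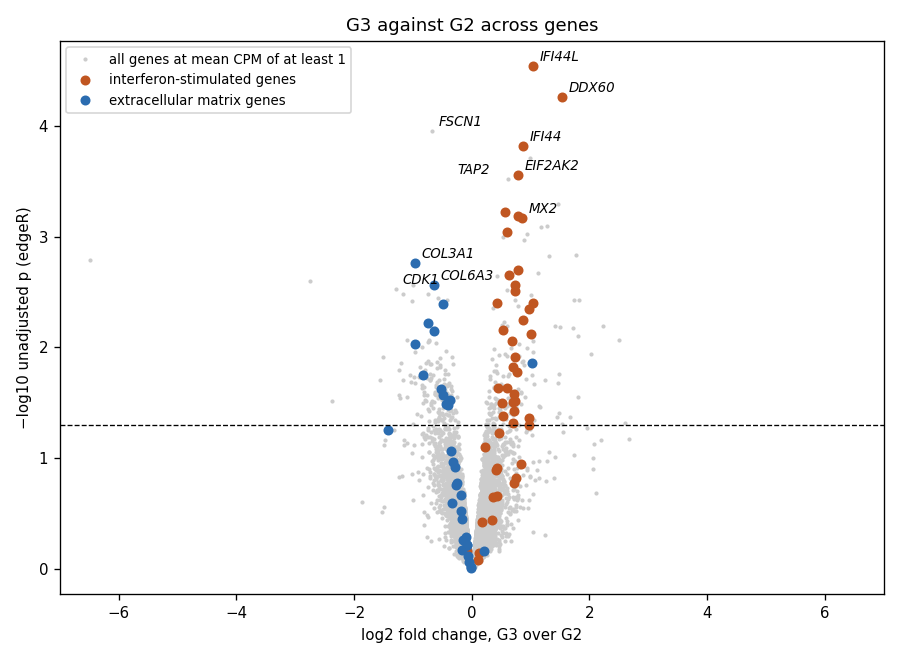
Each point is a gene with a mean of at least 1 CPM, with the log2 fold change of G3 over G2 on the horizontal axis and −log10 of the unadjusted edgeR p on the vertical axis, and the dashed line marks p of 0.05. Interferon-stimulated genes (orange) lie to the right with 33 of 48 above the line. Extracellular matrix genes (blue), listed after the values were seen, lie to the left with 12 of 33 lower in G3 above it.

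The genes with the smallest p were mostly of one kind. Of the 10 named genes with the smallest p and higher values in G3, 8 belong to the interferon list: IFI44L, DDX60, IFI44, EIF2AK2, SP110, PARP12, MX2 and PARP9. The others were TAP2, which pumps peptides to MHC class I molecules, and MORC3, a nuclear ATPase. They were picked by that ranking, so their size is a description and carries no weight of its own.

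IFI44L (chromosome 6, 134660230 to 134679212), an interferon-induced gene that lies beside its relative IFI44, was at 22.5, 23.2 and 29.3 CPM in G2 (lowest, median and highest kidney) and at 30.2, 56.0 and 65.3 CPM in G3. All 6 G3 kidneys lay above all 6 G2 kidneys, with G3 kidneys 2 and 4 close to the G2 range. The log2 fold change was 1.04 ± 0.19 (SE, edgeR adjusted p = 0.706), and 0.0098 was the adjusted p of DESeq2. IFI44 (chromosome 6, 134634679 to 134649857) ran from 26.3 to 43.9 CPM in G2 with a median of 40.4, and from 44.2 to 94.6 CPM in G3 with a median of 71.7. Again there was no overlap, although the lowest G3 kidney exceeded the highest G2 kidney by very little, and the log2 fold change was 0.86 ± 0.18 (SE, edgeR adjusted p = 0.948).

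DDX60 (chromosome 14, 21077491 to 21163563), a helicase that assists RNA sensing, held the largest fold of the 10. Its values were 4.22, 6.65 and 7.74 CPM in G2 and 9.20, 14.9 and 38.7 CPM in G3, with no overlap and with G3 kidney 3 well above the rest. The log2 fold change was 1.54 ± 0.29 (SE), which leaving out a kidney moved between 1.19 and 1.68. The edgeR adjusted p was 0.706 and that of DESeq2 0.0098. In G1, where no vesicles were given, the median was 6.22 CPM, inside the range of G2. G1 kidney 5 was at 10.4 CPM, above every G2 kidney and above G3 kidney 2. The same G1 kidney lay inside the G3 range for IFI44L and IFI44, at 41.4 and 48.7 CPM.

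Among RNA-binding effectors, EIF2AK2 (chromosome 3, 103041029 to 103096741), the kinase PKR that halts translation on double-stranded RNA, was at 63.0, 73.2 and 80.6 CPM in G2. In G3 the values were 75.9, 119 and 189 CPM, so 5 of 6 kidneys stood above every G2 kidney and kidney 2 did not. The log2 fold change was 0.78 ± 0.17 (SE, edgeR adjusted p = 0.948). G1 kidneys ran from 44.9 to 110 CPM, into the G3 range. SP110 (chromosome 15, 131169911 to 131226543), a nuclear body protein, was at 8.92 to 13.6 CPM in G2 and 16.6 to 20.6 CPM in G3, without overlap. MX2, a GTPase that restricts viral cores, was at 204, 278 and 402 CPM in G2 and 326.4, 524 and 666 CPM in G3, and G3 kidneys 2 and 4 lay inside the G2 range. OAS2, which makes the messenger that activates RNase L, reached 485, 526 and 461 CPM in G3 kidneys 1, 3 and 5, while G3 kidneys 2, 4 and 6 were at 134, 194 and 169 CPM, within the G2 range of 111 to 245 CPM. ADAR, an editor of double-stranded RNA, had the same 3 kidneys above all of G2, with a log2 fold change of 0.73 ± 0.21 (SE, edgeR adjusted p = 0.948).

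**Figure D2:**
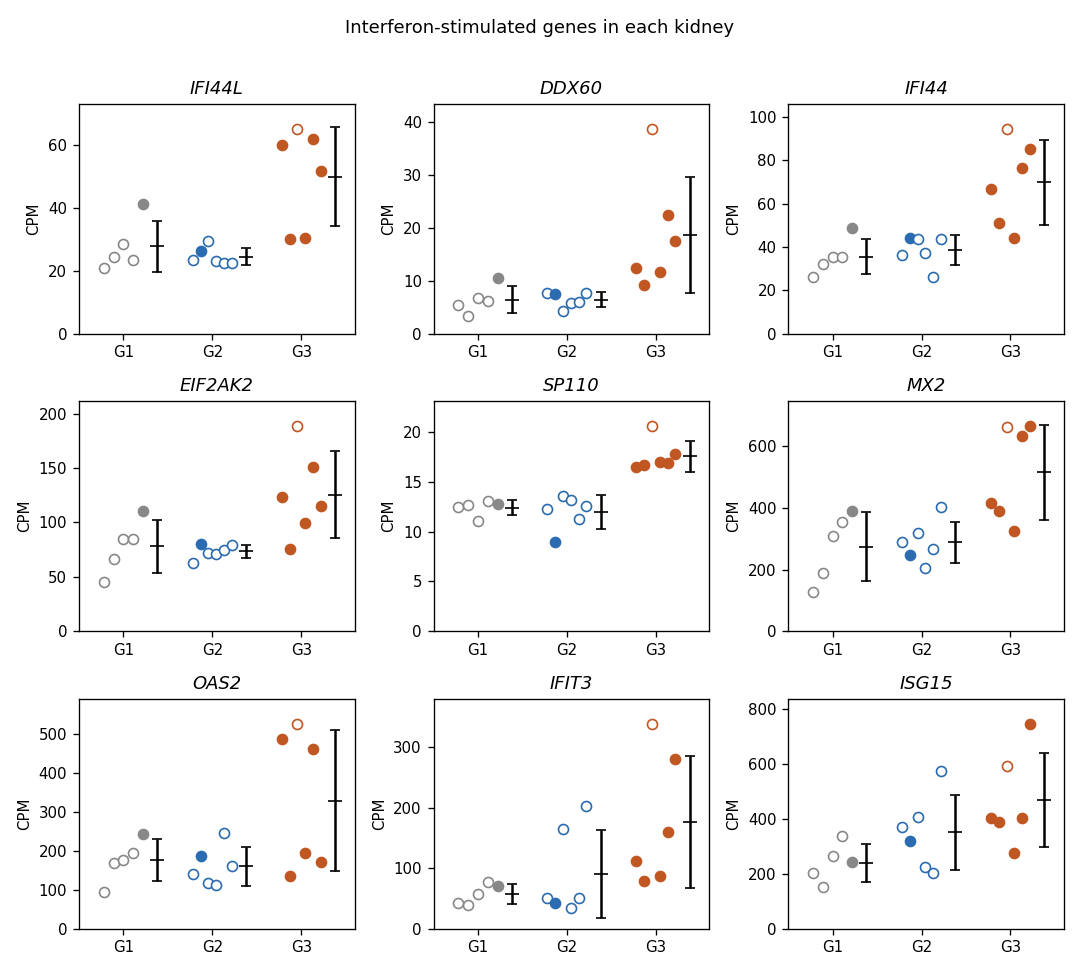
CPM of 9 interferon-stimulated genes in each kidney of G1, G2 and G3, with filled points for kidneys in which EIF1AY was at 1 CPM or more and black bars for mean ± SD. IFI44L, DDX60, IFI44 and SP110 have no overlap between G3 and G2, whereas the groups overlap for IFIT3, through G2 kidneys 3 and 6, and for ISG15.

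Over the whole list of interferon-stimulated genes, 48 of 55 symbols were measured. Of these, 33 were higher in G3 at an unadjusted p under 0.05 (68.8%, against 1.61% of all genes), 0 were lower, and 15 did not reach that level. A log2 fold change above 0 was found for 47 of 48, against 49.7% of all genes, with LGALS3BP the exception at −0.09, and the median was 0.71 against −0.0018 over all genes. No member reached an adjusted p under 0.05 with edgeR. The members share their regulation and the same 12 kidneys, so they are not separate pieces of evidence. The list was also chosen with earlier results of these data known. The study had DDX60, IFI44, IFIT3 and SP110 among its top genes, higher in these same G3 kidneys than in G1. The share of the list is therefore a description and not an independent finding. Leaving out a kidney gave 23 to 38 members higher, lowest without G3 kidney 3, and medians of 0.54 to 0.81.

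The summed CPM of the 48 genes showed how the kidneys differed. In G2 it was 2452, 2910 and 4954 (lowest, median and highest), in G3 3308, 4979 and 7511, and in G1 1958, 3104 and 3735. G3 kidneys 3, 5 and 6 lay above every G2 kidney, and G3 kidneys 1, 2 and 4 lay within the G2 range. Counting for each gene the 3 highest of the 12 kidneys, G3 kidney 3 was among them for 44 of 48 genes, kidney 6 for 40 and kidney 5 for 25, while G3 kidneys 2 and 4 were among them for 1 gene each. Of the G2 kidneys, kidney 6 was among them for 12 genes, kidney 3 for 5, and kidneys 2 and 5 for 0.

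**Figure D3:**
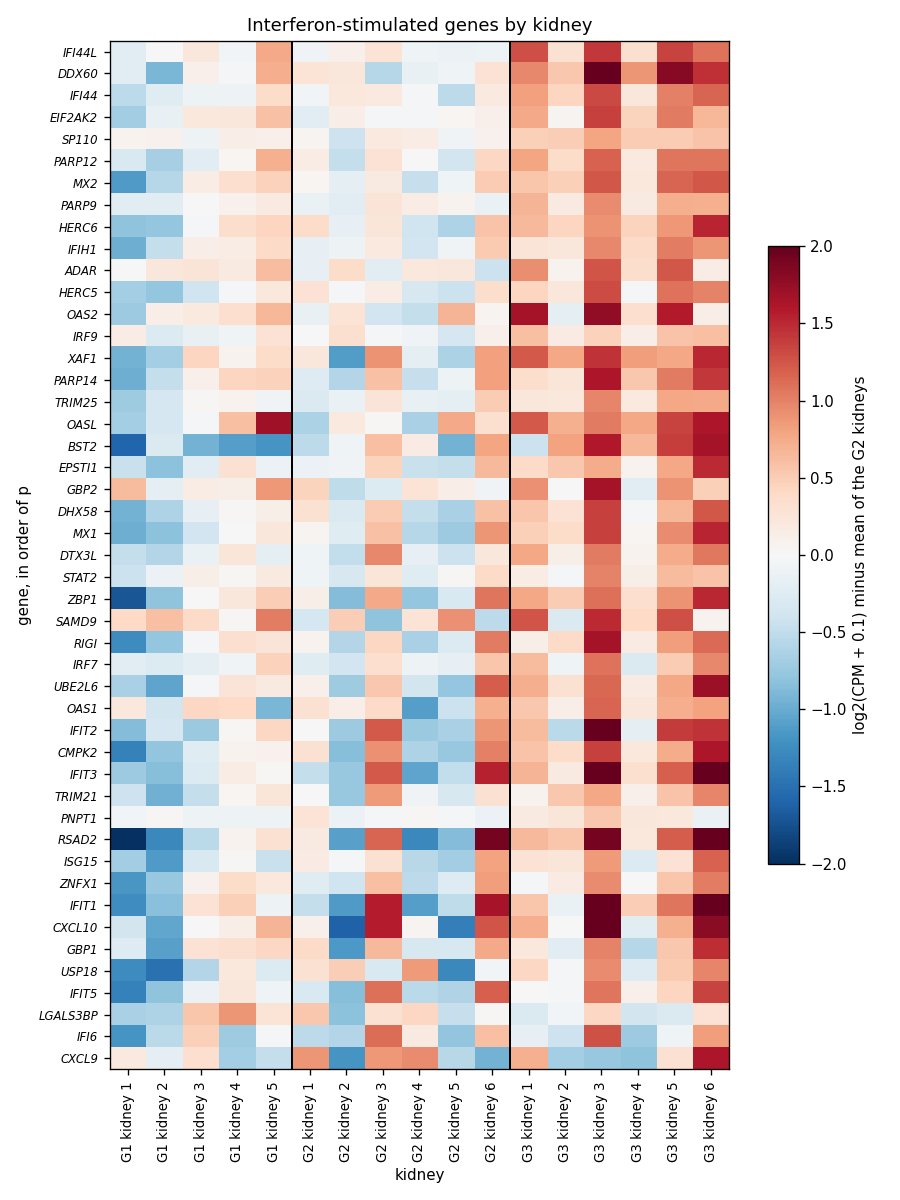
Each row is one of 47 of the 48 interferon-stimulated genes in order of p and each column a kidney, with colour for log2(CPM + 0.1) minus the mean of the G2 kidneys. G3 kidneys 3, 5 and 6 are red for most genes, G3 kidneys 2 and 4 are pale, and G2 kidneys 3 and 6 are red for the IFIT genes, RSAD2 and CXCL10.

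The IFIT genes code for proteins that bind viral RNA ends. IFIT3 was at 33.4, 50.04 and 203 CPM in G2 and 79.0, 136 and 339 CPM in G3, the groups overlapping through G2 kidneys 3 and 6 at 164 and 203 CPM. IFIT1 was high in the same 2 G2 kidneys, at 67.7 and 71.9 CPM, against 16.4 CPM or less in the other 4, and in G3 kidneys 3 and 6 at 94.3 and 95.9 CPM. RSAD2, the antiviral enzyme viperin, and the chemokine CXCL10 also had G2 kidneys 3 and 6 above the other 4 G2 kidneys, and their log2 fold changes were 0.83 ± 0.50 and 0.72 ± 0.50 (SE, edgeR adjusted p = 0.948 for both). G2 kidneys 3 and 6 and G3 kidney 6 were also the ones with the fewest genes detected of the 12 (18926, 18813 and 18968), and 14.4%, 17.7% and 20.03% of their counts were mitochondrial. G3 kidney 3, also high for IFIT1, had 20450 genes detected and a mitochondrial share of 11.5%. G3 kidneys 1, 2 and 4, at 17.8%, 15.6% and 14.7%, had larger mitochondrial shares than G2 kidney 3. The part of gene detection and mitochondrial share in the result was not tested.

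ISG15 is joined to target proteins by the activating enzyme UBA7, the conjugating enzyme UBE2L6 and ligases such as HERC5, HERC6 and TRIM25, and is removed by USP18. At an unadjusted p under 0.05, 5 of 10 members of this list, which shares genes with the interferon list, were higher (against 1.61% of all genes) and 0 lower, and the median log2 fold change was 0.48. UBA7 stood furthest apart, at 15.3, 20.9 and 17.9 CPM in G3 kidneys 1, 3 and 5 against 2.92, 6.11 and 2.14 CPM in G3 kidneys 2, 4 and 6 and 1.95 to 4.56 CPM in G2. Its log2 fold change was 1.77 ± 0.47 (SE, edgeR adjusted p = 0.948). HERC6 was at 64.2, 102 and 147 CPM in G2 and 132, 167 and 283 CPM in G3, a log2 fold change of 0.79 ± 0.22 (SE, edgeR adjusted p = 0.948). ISG15 itself was at 203, 345 and 575 CPM in G2 and 273, 401 and 747 CPM in G3, with wide overlap and a log2 fold change of 0.42 whose 95% interval ran from −0.12 to 0.97.

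Among signal transduction genes of the pathway, IRF9 had a log2 fold change of 0.43 ± 0.13 and STAT2 of 0.44 ± 0.18 (SE, edgeR adjusted p = 0.948 for both), both among the 33 genes above. For 23 genes of interferons, their receptors and nucleic acid sensing, a list put together after the values were seen, 0 were higher and 0 lower at an unadjusted p under 0.05 (against 1.61% and 1.52% of all genes), with a median log2 fold change of 0.06. With EIF1AY detection as a covariate 2 were higher (against 1.64% of all genes). In the latest run of sample codes (series C below) 2 were also higher (against 1.56%). Leaving out a kidney gave up to 1 higher or 1 lower. IFNB1, the fibroblast interferon, was at 0 to 1.08 CPM in G2 and 0 to 0.82 CPM in G3, and IFNG was at 0.66 CPM or less in all 12 kidneys. The receptor gene IFNAR1 was at a median of 124 CPM in both groups.

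Antigen presentation by MHC class I, which shares much of its control with the interferon response, had 3 of 12 members higher and 1 lower at an unadjusted p under 0.05 (against 1.61% and 1.52% of all genes). With EIF1AY detection as a covariate 4 were higher and 0 lower (against 1.64% and 1.28% of all genes). The count higher was 5 without G2 kidney 4, and 2 without G2 kidney 1 or G3 kidney 1, 3 or 5. TAP2 (chromosome 7, 25045085 to 25056915) was at 20.5, 24.7 and 27.1 CPM in G2 and 28.6, 36.6 and 46.4 CPM in G3 without overlap, a log2 fold change of 0.61 ± 0.14 (SE, edgeR adjusted p = 0.948). PSMB8, a subunit of the immunoproteasome, had a log2 fold change of 0.60 ± 0.19 and NLRC5, the transactivator of class I genes, of 0.74 ± 0.30. ERAP1, which trims peptides in the endoplasmic reticulum, was lower, at 20.1, 26.7 and 36.3 CPM in G2 and 6.13, 14.3 and 29.5 CPM in G3.

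The interferon result was also computed around the EIF1AY split and the sample codes. With EIF1AY detection as a covariate, 41 of 48 members were higher (against 1.64% of all genes) and the median log2 fold change was 0.99. In that fit the interferon-inducible chemokine CXCL11, which is not on the list, was the only gene called, with a log2 fold change of 3.05 and an edgeR adjusted p of 0.00055, against 1.74 and 0.948 without the covariate. Among kidneys without EIF1AY, G3 kidney 3 against 5 of G2, 28 members were higher (1.63% of all genes), and among those with it, 5 of G3 against G2 kidney 2, 29 were higher (2.96%). The lone G3 kidney is the one with the highest sum and the lone G2 kidney one of the lowest, so these counts describe those kidneys. The covariate fit rests largely on the same kidneys, and none of these fits shows the result apart from EIF1AY. Sample codes form 3 numeric runs, the meaning of which is not given, and the latest run, here series C, holds 4 kidneys of each group. Within series C, 28 of 48 members were higher (1.56% of all genes) and 0 lower, with a median of 0.73.

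Genes lower in G3 were led by FSCN1 (chromosome 3, 4134173 to 4143275), which bundles actin filaments in cell protrusions. It was at 22.6, 25.9 and 29.9 CPM in G2 and 12.2, 16.9 and 20.1 CPM in G3, so the groups did not overlap. The log2 fold change was −0.67 ± 0.14 (SE), with an adjusted p of 0.945 in edgeR and 0.012 in DESeq2. G1 kidneys spread across both, from 15.9 to 36.7 CPM.

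Collagen genes made up 4 of the 10 named genes with the smallest p on the lower side: COL3A1, COL6A3, COL15A1 and COL1A2. COL3A1 (chromosome 15, 93556914 to 93595678), the type III collagen of the interstitium, was at 68.7, 162 and 247 CPM in G2 and 55.9, 72.2 and 149 CPM in G3. The overlap came from G2 kidney 2 at 68.7 CPM, while the other 5 G2 kidneys lay between 155 and 247 CPM, above all of G3. G3 kidney 2 was the highest of its group at 149 CPM, and the other 5 lay between 55.9 and 79.9 CPM. The log2 fold change was −0.97 ± 0.26 (SE, edgeR adjusted p = 0.948). COL1A1 and COL1A2, the chains of type I collagen, had log2 fold changes of −0.63 ± 0.21 and −0.75 ± 0.24, and COL6A3, of the microfibrillar collagen around cells, −0.65 ± 0.19 (SE, edgeR adjusted p = 0.948 for all). FN1, the adhesive glycoprotein fibronectin, was at 66.5, 85.0 and 227 CPM in G2 and 36.3, 70.1 and 111 CPM in G3, where the 2 high G2 kidneys were 1 and 6.

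Of 33 extracellular matrix genes, listed after the values were seen, 12 were lower in G3 at an unadjusted p under 0.05 (36.4%, against 1.52% of all genes) and 1 was higher, with a median log2 fold change of −0.28. The one higher was MMP7, a matrix-degrading enzyme of injured tubules, at 13.5, 45.2 and 71.9 CPM in G2 and 44.2, 82.5 and 141 CPM in G3 (log2 fold change 1.02 ± 0.37, SE, edgeR adjusted p = 0.948). The count on the lower side was 7 without G2 kidney 6, without G3 kidney 1 and without G3 kidney 3. It was 1 of 33 with EIF1AY detection as a covariate (against 1.28% of all genes), with a median of −0.36. Among kidneys with EIF1AY the median was 0.05 with 1 gene lower (1.4% of all genes), where the only G2 kidney is kidney 2, the one with the low COL3A1. Among kidneys without it the median was −0.80 with 17 lower (1.35% of all genes), where the only G3 kidney is kidney 3. Medians of G1 for COL3A1, COL1A2 and COL6A3 were 83.4, 59.8 and 61.2 CPM, nearer to G3 than to G2. Markers of fibroblasts, pericytes and smooth muscle had 4 of 14 lower (against 1.52% of all genes), COL3A1, COL1A2 and COL1A1 among them, and their median was −0.18. With EIF1AY detection as a covariate 1 was lower and the median was −0.35, and the median was 0.28 among kidneys with EIF1AY and −0.93 among those without. The fibroblast genes PDGFRA and DCN had log2 fold changes of −0.11 ± 0.17 and −0.18 ± 0.26, and the mural genes RGS5 and MYH11 of 0.07 ± 0.14 and 0.07 ± 0.23.

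**Figure D4:**
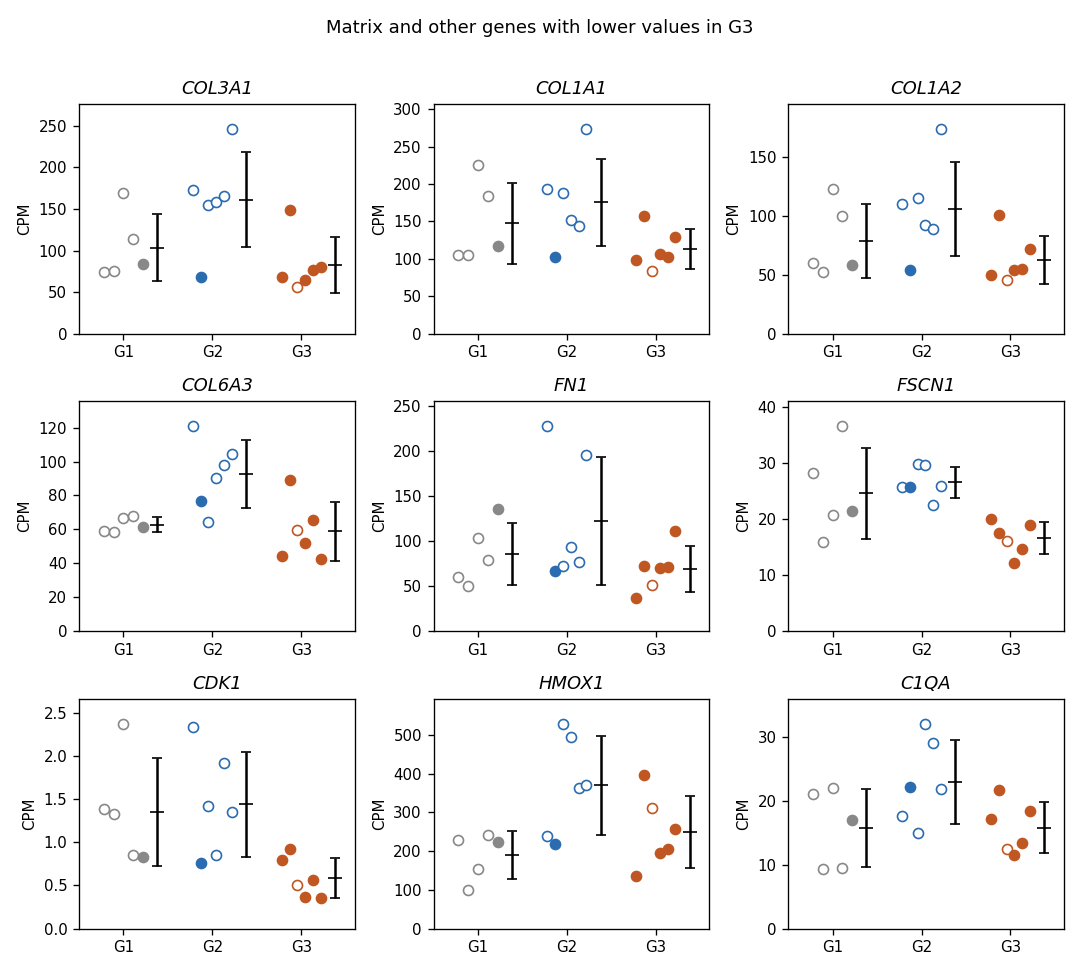
CPM of 9 genes with lower values in G3 in each kidney, with filled points for kidneys in which EIF1AY was at 1 CPM or more and black bars for mean ± SD. G2 kidney 2, the filled G2 point, is the one G2 kidney that overlaps G3 in COL3A1, and FSCN1 alone of these has all G3 kidneys below all G2 kidneys.

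Further genes of low p on the lower side were the fatty acid binding proteins FABP4 and FABP5, with log2 fold changes of −0.998 ± 0.29 and −0.57 ± 0.17, and MMP19, another matrix enzyme, at −1.17 ± 0.34 (SE, edgeR adjusted p = 0.948 for all). In the cell cycle list, 3 of 22 members were lower (against 1.52% of all genes) and 0 higher at an unadjusted p under 0.05, and 21 had a log2 fold change below 0 with a median of −0.30. The count lower was 1 without G2 kidney 4 and 5 without G3 kidney 2. With EIF1AY detection as a covariate it was 0, with 8 of 22 above 0 and a median of −0.11, and the median was 0.19 among kidneys with EIF1AY and −0.31 among those without. CDK1, the kinase of mitotic entry, was at 0.76, 1.39 and 2.34 CPM in G2 and 0.36, 0.54 and 0.92 CPM in G3. CCNB1, its cyclin partner, had a log2 fold change of −1.13 ± 0.52 and STMN1, which loosens microtubules, of −0.36 ± 0.14.

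Among markers of the nephron, proximal tubule had 0 of 14 and loop of Henle 0 of 8 genes past an unadjusted p of 0.05, with medians of −0.05 and −0.08. With EIF1AY detection as a covariate all 14 proximal tubule genes were above 0 with a median of 0.21. The proximal tubule median was 0.66 among kidneys with EIF1AY and −0.10 among kidneys without it. The loop of Henle median was 0.17 among kidneys with EIF1AY and −0.33 among those without. Podocyte had 2 of 9 lower (against 1.52% of all genes) with a median of −0.22, among them CLIC5, an ion channel protein of the foot process, at 27.9 to 73.9 CPM in G2 and 20.3 to 42.7 CPM in G3 (log2 fold change −0.51 ± 0.22). That count was 0 without G2 kidney 4, 1 without G2 kidney 6 and up to 3 without another kidney. It was 0 with EIF1AY detection as a covariate. Within series C it was 4 of 9 (against 1.67% of all genes), with a median of −0.31. The podocyte median was 0.26 among kidneys with EIF1AY and −0.49 among those without. Distal tubule and collecting duct had 2 of 12 lower (against 1.52% of all genes), PVALB and the sodium channel subunit SCNN1G. SCNN1G was at 4.64, 10.7 and 23.8 CPM in G2 and 6.02, 7.93 and 9.48 CPM in G3, with G2 kidneys 3 and 6 the high ones. The distal count was 4 without G2 kidney 1, 1 without G2 kidney 3, G3 kidney 4 or G3 kidney 6, 0 without G2 kidney 6, and 0 with EIF1AY detection as a covariate, where 1 gene was higher. The distal median of −0.10 was 0.17 among kidneys with EIF1AY and −0.24 among those without. Within series C 4 of 12 distal genes were lower (against 1.67% of all genes), with a median of −0.18.

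Among vessel and blood cell markers, endothelium had 1 of 19 higher (against 1.61% of all genes), which was SOX7, and a median of −0.02. The fit with EIF1AY detection as a covariate had 0 higher and 3 lower (against 1.64% and 1.28% of all genes), with 2 above 0 and a median of −0.32. Without any one of 8 of the 12 kidneys, or with scaling by library size only, no endothelial gene was higher. Macrophage and monocyte had 1 of 14 lower (against 1.52% of all genes), the complement gene C1QA at −0.53 ± 0.20, and its list median was −0.24. That count was 5 without G2 kidney 1, 4 without G2 kidney 2 or G3 kidney 2, 3 without G3 kidney 6 or with scaling by library size only, and 2 without G2 kidney 3. Within series C 6 of 14 were lower (against 1.67% of all genes), with a median of −0.40. Neutrophil had 0 of 8 and lymphocyte 0 of 16 in either direction (against 3.13% of all genes). Leaving out a kidney gave up to 1 neutrophil gene higher or 2 lower, and 1 was lower with EIF1AY detection as a covariate. The lymphocyte median of 0.13 was −0.20 with that covariate, 0.24 among kidneys with EIF1AY and −0.69 among those without. HBB, the beta chain of haemoglobin, was at 0.92 to 4.01 CPM in G2 and 0.047 to 1.73 CPM in G3, and was the 1 of 7 red cell and platelet genes that was lower, a count that was 0 without G2 kidney 1, G2 kidney 6 or G3 kidney 2 and 2 without G2 kidney 2. The median of those 7, of which 5 were at 1.03 CPM or less in all 12 kidneys, was −0.75, and 0.12 with EIF1AY detection as a covariate.

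**Figure D5:**
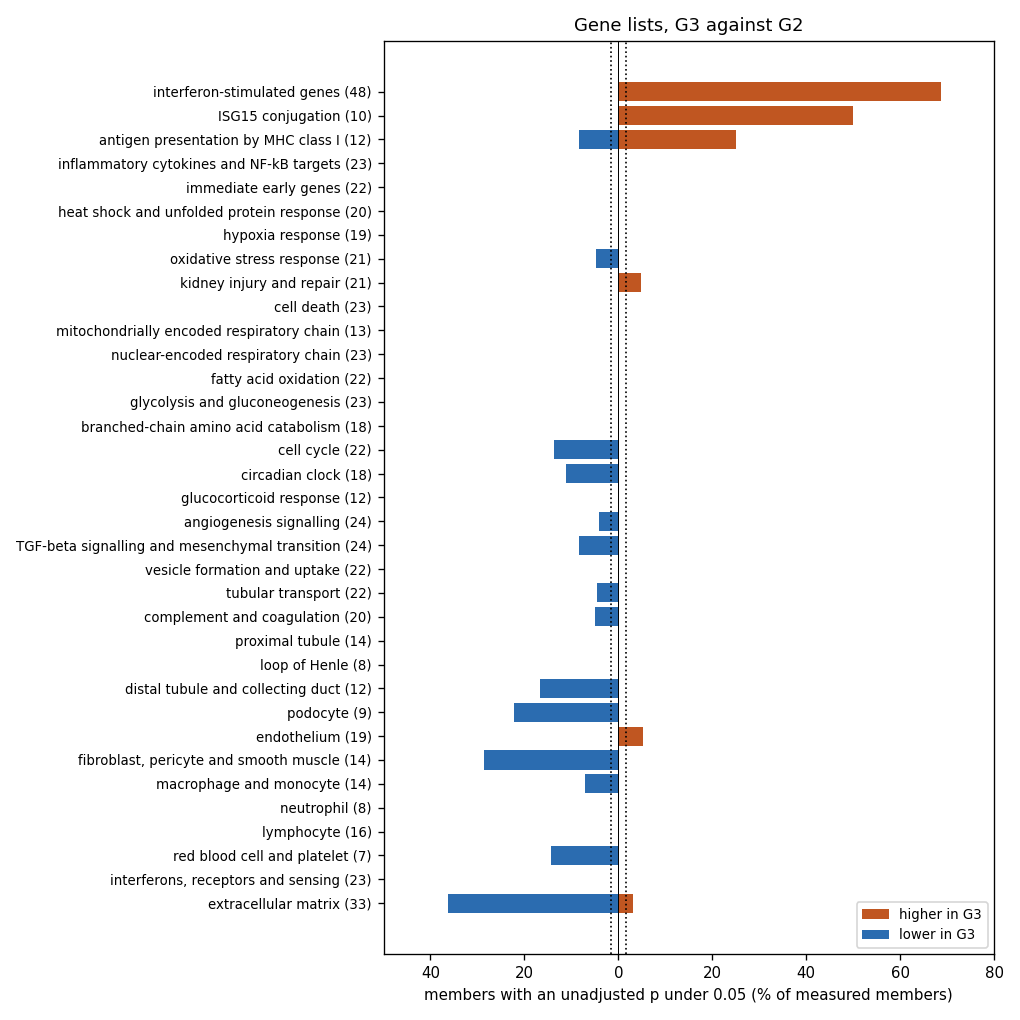
For each gene list, with its number of measured genes in brackets, bars give the percentage of members higher (orange, to the right) or lower (blue, to the left) in G3 at an unadjusted p under 0.05, and dotted lines give the shares over all genes, 1.61% and 1.52%. The interferon list stands at 68.8% on the right, the matrix list at 36.4% on the left, and 17 of 35 lists have no member in either direction. The matrix list and the list of interferons, receptors and sensing were put together after the values were seen, so their bars are not on a par with the rest.

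Several lists tied to ischemia and reperfusion had no member past an unadjusted p of 0.05, where the share over all genes, 3.13%, would give under 1 member in a list of their size. This held for inflammatory cytokines and NF-kB targets (0 of 23, median log2 fold change −0.04), immediate early genes (0 of 22, −0.08), heat shock and the unfolded protein response (0 of 20, −0.06), the hypoxia response (0 of 19, −0.02) and cell death (0 of 23, −0.00073). It did not hold for all of them in other fits: with EIF1AY detection as a covariate 2 inflammatory genes were lower, 2 immediate early genes higher and 1 lower, and 1 cell death gene higher, and within series C 2 heat shock genes were higher and 2 lower, and 1 gene was lower in each of the inflammatory, immediate early and hypoxia lists. Kidney injury and repair had 1 of 21 higher (against 1.61% of all genes), which was MMP7, and 0 lower. With EIF1AY detection as a covariate, or without G2 kidney 6, 2 were higher. Without G3 kidney 6, or with scaling by library size only, 2 were lower. Within series C 0 were higher and 2 lower (against 1.56% and 1.67% of all genes). ICAM1, an adhesion molecule for leukocytes, was at 274, 374 and 532 CPM in G2 and 265, 298 and 416 CPM in G3, a log2 fold change of −0.27 ± 0.17. HMOX1, which degrades heme, was the only one of 21 oxidative stress genes to reach that level (against 1.52% of all genes), at 219, 367 and 530 CPM in G2 and 134, 231 and 396 CPM in G3 (log2 fold change −0.56 ± 0.26, SE, edgeR adjusted p = 0.948), though with EIF1AY detection as a covariate its log2 fold change was −0.11. Leaving out any one of 8 of the 12 kidneys (G2 kidneys 3 to 6 and G3 kidneys 1, 4, 5 and 6) brought that count to 0. Energy metabolism lists likewise had no member there, with 0 of 23 for nuclear-encoded respiratory chain, 0 of 22 for fatty acid oxidation and 0 of 23 for glycolysis and gluconeogenesis. Their medians were 0.31, 0.38 and 0.22 among kidneys with EIF1AY, and −0.18, −0.16 and −0.18 among those without. Branched-chain amino acid catabolism had 0 of 18 there, and 1 higher and 1 lower within series C. The median of that list was 0.06, and it was 0.58 among kidneys with EIF1AY and −0.14 among those without. The 13 mitochondrially encoded genes had a median log2 fold change of 0.18, and −0.03 within series C. Among kidneys with EIF1AY it was 0.76, and among those without −0.34. Of 18 circadian clock genes 2 were lower (against 1.52% of all genes), TEF at −0.82 ± 0.33 and BHLHE41 at −0.60 ± 0.25, and 7 were above 0, with a list median of −0.14. The count was 6 without G2 kidney 2, 4 without G3 kidney 3, 1 without G2 kidney 5 or G3 kidney 1, and 0 without G3 kidney 4. Within series C it was 6 (against 1.67% of all genes). In the fit with EIF1AY detection as a covariate 0 were lower, 16 were above 0 and the median was 0.17.

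Genes singled out by the study were read in this comparison as well. SOX7, an endothelial transcription factor, was at 15.8, 24.8 and 42.5 CPM in G2 and 24.9, 37.0 and 49.6 CPM in G3, with a log2 fold change of 0.46 ± 0.21 (SE, edgeR adjusted p = 0.948) and of 0.07 with EIF1AY detection as a covariate. TWIST1, a mesenchymal transcription factor, was at 0.92 to 2.55 CPM in G2 and 1.07 to 1.75 CPM in G3, both below the G1 median of 2.58 CPM, and its 95% interval ran from −0.68 to 0.53. SOCS5, an inhibitor of cytokine signalling, was held between 74.7 and 77.7 CPM in all 6 G2 kidneys and spread from 52.6 to 93.1 CPM in G3. HIF1A had a 95% interval from −0.27 to 0.30, NR1H3 from −0.14 to 0.40, SUMO2 from −0.31 to 0.19 and PCNA from −0.46 to 0.17 on the log2 scale. FOXP3, of regulatory T cells, was at 1.17 CPM or less in all 12 kidneys, and BCAT2, which starts the breakdown of branched-chain amino acids, was at 57.0, 92.8 and 133 CPM in G2 and 69.1, 74.3 and 78.4 CPM in G3.

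Within series C, 4 kidneys against 4, edgeR called 0 of 24734 genes, with 800 at an unadjusted p under 0.05 (3.23%), 386 higher and 414 lower (1.67%), and a smallest adjusted p of 0.0697. DESeq2 called 29 (0.117%), 13 higher and 16 lower in G3. A single draw of simulated series C counts without any difference also gave calls in both edgeR and DESeq2, more than over the 12 kidneys. COL3A1 had the smallest p among the 29, at −1.40 ± 0.21 (DESeq2 adjusted p = 3.1e-07), and COL1A2, COL6A5, FABP4, FABP5, FSCN1 and HMOX1 were lower as well. DDX60 (1.93 ± 0.34, adjusted p = 0.00014), IFI44L and EIF2AK2 were among the higher ones. MMP1, the interstitial collagenase, was higher in series C at 1.77 ± 0.33 (DESeq2 adjusted p = 0.00022), where G2 kidneys 3 to 6 were at 48.6, 24.5, 69.5 and 34.0 CPM and G3 kidneys 3 to 6 at 141, 170, 200 and 94.7 CPM. Over all 12 kidneys its log2 fold change was 0.20 ± 0.50, where G2 kidneys 1 and 2 were at 188 and 311 CPM and G3 kidneys 1 and 2 at 47.7 and 119 CPM. PTGS1, cyclooxygenase 1, had log2 fold changes of 2.04 in DESeq2 within series C and 0.09 in edgeR over all kidneys. Unnamed genes that follow EIF1AY also stood among the 29, including ENSSSCG00000026430 at 262.6 to 476 CPM in the 5 G3 kidneys with EIF1AY and 0.04 CPM in G3 kidney 3.

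Of 13661 genes with a mean of at least 1 CPM, 16 (0.117%) had no overlap between the groups, 12 higher in G3 (0.0878%) and 4 lower (0.0293%). The 12 were IFI44L, IFI44, DDX60, SP110, its paralog SP140, TAP2, MORC3, TIRAP, SYTL4, KIAA1328 and 2 genes without a symbol, and the 4 lower were FSCN1, DUSP16, TXLNG and C9orf85. TIRAP, an adapter of Toll-like receptors, had a log2 fold change of 0.30 ± 0.12 and SP140 of 0.43 ± 0.12. Of the 48 interferon-stimulated genes, 4 were among the 12.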

How the data were processed

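Illumina Stranded mRNA Prep libraries from 1 end-of-NMP biopsy per kidney were read from both ends. The authors trimmed reads with cutadapt 4.0, aligned them with STAR to Sscrofa11.1 and deposited a table of whole-number read counts for 26560 genes, not normalized. The program that counted reads and its strand setting are not given in the sources used here, so overlapping and antisense genes are uncertain. A second deposited table with the authors' DESeq2 comparison of G3 with G1 was used for gene symbols only. Symbols matched 15104 genes, and coordinates are RefSeq's on Sscrofa11.1.

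G3 was compared with G2 by edgeR 4.0.16 (quasi-likelihood test, TMM, Benjamini-Hochberg adjustment) in R 4.3.3 over genes with at least 1 count. CPM used TMM factors, and log2 CPM a prior count of 2. Single library measures used exact permutation tests in Python 3.11.15 with scipy 1.17.1. Alternatives were DESeq2 1.42.0, limma 3.58.1 voom, other scaling, filters, covariates and leaving out each kidney. The fits were tested on single draws of simulated data. With changed genes in them, DESeq2 recovered more of these than edgeR and made more false calls, and both made more false calls in series C. Both also called some genes where no difference was simulated. No 2 libraries of a group agreed within sampling noise (30 pairs, chi-square 29.2 to 153 times its degrees of freedom).

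Named genes were the 10 of smallest p in each direction with a symbol and a mean CPM of at least 1, since none passed, the 4 of smallest p and the first 2 in each list, genes the study names, and at most 5 genes called within series C or by DESeq2. Other list members were named after their values were seen. Members and lists were chosen with earlier results of these data known. Some genes are not reported here.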

Additional observations from a re-analysis of the deposited data

Results flagged for a closer look

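Single kidneys stood apart from the other 5 of their group by Dixon's criterion at 95% in 8 of 74 groups of values tested, where chance gives about 3.7. All values are log2 CPM. COL3A1 stood apart in both groups, with G2 kidney 2 at 6.10 below the other G2 kidneys (7.28 to 7.95) and G3 kidney 2 at 7.22 above the other G3 kidneys (5.81 to 6.32). FABP4 was also high in G3 kidney 2, at 2.91 against 1.74 to 2.11. In the interferon list, IFI44 was low in G2 kidney 5, at 4.72 against 5.19 to 5.46, and SP110 was high in G3 kidney 3, at 4.37 against 4.06 to 4.16. SUMO2 was low in G3 kidney 5, at 6.17 against 6.41 to 6.54. ENSSSCG00000026430, a gene without a symbol that follows EIF1AY, was at 8.72 in G2 kidney 2 against −3.45 to −1.70 in the other G2 kidneys, and at −2.94 in G3 kidney 3 against 8.04 to 8.89 in the other G3 kidneys.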

How the results depend on the processing

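With 6 kidneys in each group, genes of low count had wide intervals, and EIF1AY detection and group cannot be fully told apart. The number of genes called at an adjusted p under 0.05 was 0 over the 12 kidneys in edgeR, 3 in DESeq2 with and without independent filtering, 1 with EIF1AY detection as a covariate (CXCL11), 2 in kidneys without EIF1AY (CXCL11 and DDX60, from G3 kidney 3 alone against 5 of G2) and 0 to 5 when a kidney was left out, the 5 without G2 kidney 2 being EIF1AY and 4 unnamed genes. At an unadjusted p under 0.05, genes higher in G3 numbered 253 in DESeq2 (with and without independent filtering), 170 under a minimum of 10 counts per kidney, 197 with filterByExpr, 719 in kidneys with EIF1AY and 335 to 483 when a kidney was left out. Genes lower in G3 numbered 171 under a minimum of 10 counts per kidney, 191 with filterByExpr and 304 to 527 when a kidney was left out. The filters test fewer genes. Otherwise the cause was not tested.

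Same-numbered kidneys of the groups come from different pigs, and the deviations of only 2 of 6 pairs correlated above 0.1, so the numbers do not pair them. With the replicate number as a block, 7 genes were called over the 12 kidneys and 37 in series C, and 245 genes were lower at an unadjusted p under 0.05.

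Within series C the calls numbered 29 in DESeq2, 27 without its independent filtering, 5 with EIF1AY detection as a covariate and 0 to 19 when a kidney was left out (19 without G3 kidney 3, 8 without G3 kidney 4, 5 without G3 kidney 6 and 1 without G2 kidney 5). Genes higher at an unadjusted p under 0.05 numbered 233 under a minimum of 10 counts per kidney, 252 with filterByExpr, 675 with voom and 277 to 678 when a kidney was left out. Those lower numbered 644 with voom and 297 to 556 when a kidney was left out. Genes without overlap numbered 21 to 41 when a kidney was left out, against 16. Leaving out a kidney moved the difference in total count between 630969 and 1724254 (exact permutation p = 0.026 without G3 kidney 5), that in genes detected between −28.2 and 395, and that in mitochondrial share between 0.58 and 2.68 percentage points.

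Of 33 named genes with 756 recomputed values, 730 kept direction and side of the threshold, 8 passed it only in the alternative and 18, in 7 genes, changed sign. With EIF1AY detection as a covariate the log2 fold changes of TWIST1, SUMO2 and PCNA became 0.19, 0.0022 and 0.17, and those of FOXP3, HIF1A, MMP1 and ENSSSCG00000026430 became −0.33, −0.021, −0.17 and −0.25. TWIST1 was at 0.022 with voom and −0.18 to 0.12 when a kidney was left out, including 0.00062 without G3 kidney 2. HIF1A was at −0.0015 with code series as a covariate, −0.019 with library size only and −0.041 to 0.093 when a kidney was left out. MMP1 ran from −0.0049 to 0.81 when a kidney was left out.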
